A study of Mus musculus with 10 samples.

Results

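The genes described here encode the oxidative phosphorylation complexes of mitochondria. They were taken by gene symbol: names starting with Nduf (complex I, except Ndufa4, which is now known as a complex IV subunit and is counted there), Sdha to Sdhd (complex II), Uqcr (complex III), Cox4 to Cox8 (complex IV) and Atp5 (complex V). The deposited table of 9690 genes held 86 of them: 44 entries for complex I, 4 for complex II, 8 for complex III, 13 for complex IV and 17 for complex V. Complex I was split into 7 core subunits, 29 accessory subunits, 7 assembly factors and the pseudogene Ndufs5-ps. All 86 passed the filter on low values. The 13 mitochondrially encoded subunits numbered 0 in the table, and 11 further protein-coding genes of the annotation that fit the symbols, among them Cox4i2, Cox6a2 and Ndufa4l2, were not analysed here.

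The study compared B cells with and without LSD1, a histone demethylase encoded by Kdm1a, in 2 B cell types sorted from the spleen of female C57BL/6J mice without stimulation. KO marginal zone B cells (KO MZB, 2 libraries) were set against wild-type marginal zone B cells (WT MZB, 3 libraries), and KO follicular B cells (KO FoB, 3 libraries) against wild-type follicular B cells (WT FoB, 2 libraries). All 4 groups were sorted as Thy1.1-, F4/80-, CD11b-, B220+, CD93- and GL7-. Marginal zone cells were further CD23-, CD21hi and CD1d+, and follicular cells CD23+, CD21mid and CD1d-. Poly(A) RNA of 50000 cells per sample was sequenced. The labels give neither the age of the mice nor the way LSD1 was removed. Nor do they tell whether each library is another mouse, so a p-value here measures how far the libraries scatter, and that scatter may be technical.

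Complexes I to IV form the respiratory chain. Complexes I and II pass electrons from NADH and succinate to coenzyme Q, complex III passes them on to cytochrome c, and complex IV passes them to oxygen. Complexes I, III and IV pump protons out of the mitochondrial matrix, and complex V, the ATP synthase, makes ATP as the protons flow back. Complex II is also an enzyme of the citric acid cycle and is the complex with no mitochondrially encoded subunit. Resting B cells are known to draw on this pathway, and marginal zone B cells to answer activation faster than follicular ones.

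The deposited values are mRNA molecules per cell, so they carry the total mRNA content of a cell. That total was 105590.4 and 121070.6 molecules in KO MZB libraries, 74815.0 to 99800.0 in WT MZB libraries, 43561.9 to 55703.6 in KO FoB libraries and 45237.0 and 56437.7 in WT FoB libraries. Each comparison is therefore given per cell and after rescaling, which divides a library by a factor made from all genes and leaves a gene's level relative to the rest of the cell's mRNA. Libraries held 4161051 to 6711847 reads recovered from the table, and 84 of the 86 genes averaged at least 20 reads in the libraries. Kdm1a was at 5.38 and 5.94 molecules per cell in KO MZB against 6.37, 8.37 and 7.90 in WT MZB, and at 2.04, 2.36 and 1.93 in KO FoB against 5.58 and 4.34 in WT FoB. Kdm1a mRNA was thus lower in both knockouts with no overlap, by less in the marginal zone libraries. KO FoB library 2 stood apart, with 1.45% of its mRNA in these 86 genes against 1.29% and 1.27% in the other KO FoB libraries. In bulk samples, fewer cells of a type and less RNA per cell cannot be told apart.

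The 5 complexes together made up 1.41% and 1.44% of all measured mRNA in KO MZB, 1.30%, 1.36% and 1.34% in WT MZB, 1.29%, 1.45% and 1.27% in KO FoB and 1.38% and 1.35% in WT FoB. The KO MZB libraries lay above all WT MZB libraries, and the follicular groups overlapped. In molecules, the 86 genes summed to 1616 ± 184.6 per cell in KO MZB (SD, n = 2), 1188 ± 193.3 in WT MZB (n = 3), 660.4 ± 131.4 in KO FoB (n = 3) and 693.4 ± 116.5 in WT FoB (n = 2). After rescaling the 4 sums were 976.7, 897.9, 953.5 and 968.8 in the same order of groups. The sum in KO MZB over that in KO FoB was 2.45-fold per cell and 1.02-fold after rescaling.

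**Figure D1:**
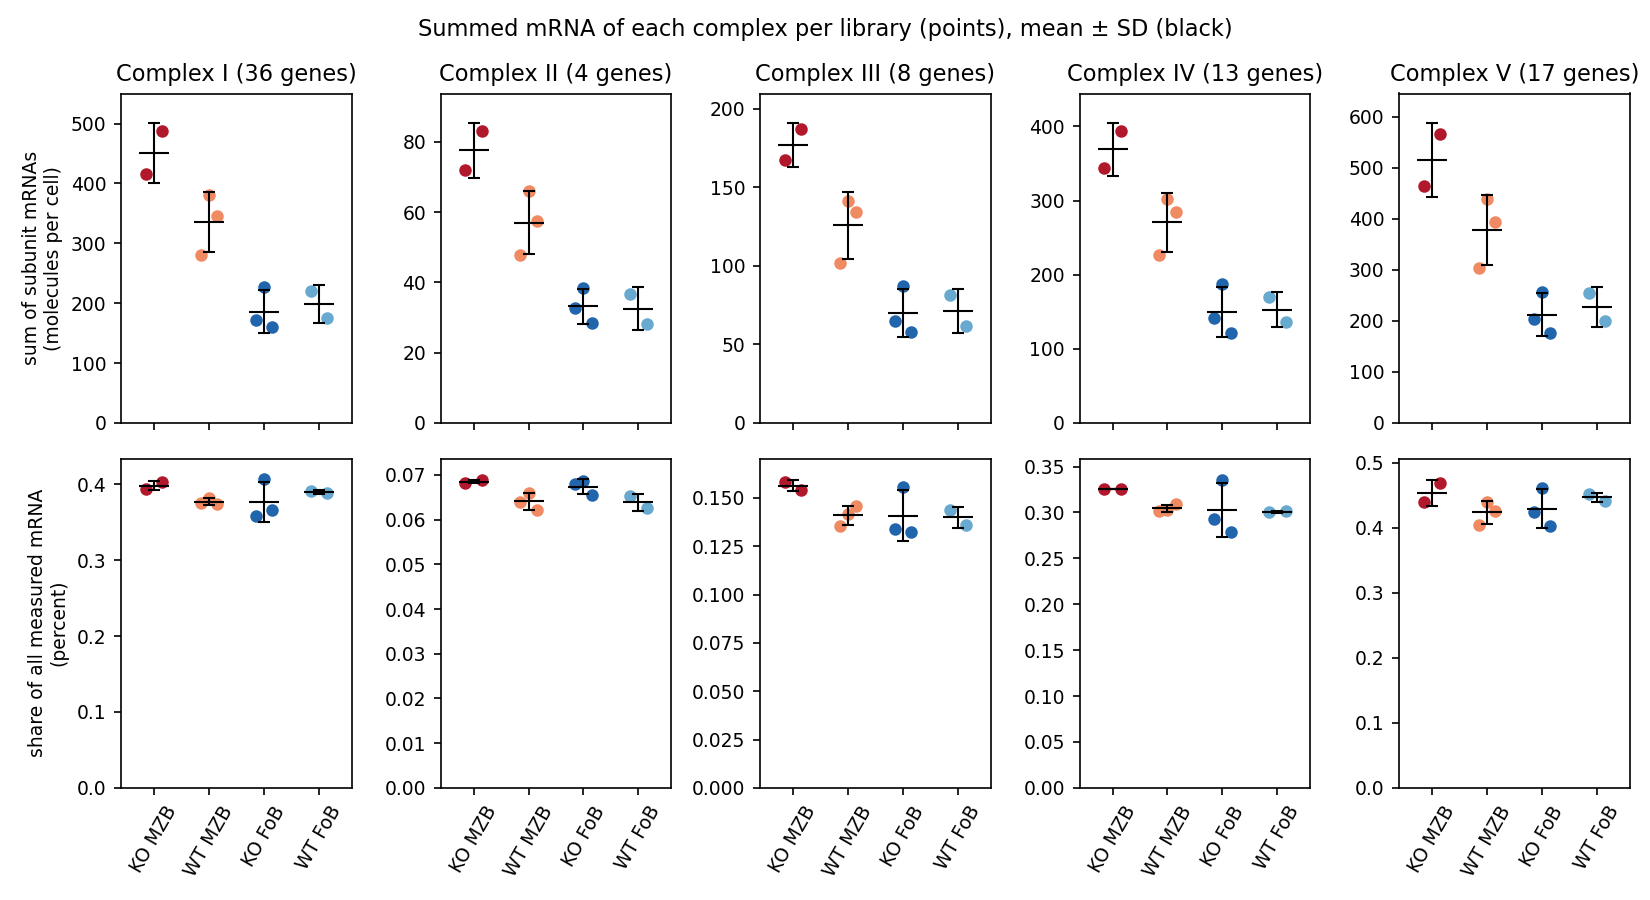
Summed mRNA of the genes of complexes I to V in each library. The top row gives molecules per cell and the bottom row the percent of all measured mRNA, each point is 1 library and the black marks give the group mean and SD. Per cell, marginal zone libraries lie above follicular ones in every complex, and as a share of mRNA the groups lie close together, with KO FoB library 2 the highest of its group. Complex I is drawn without its assembly factors and pseudogene.

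Complex V held the most mRNA of the 5 complexes and complex II the least, in every group. Complex V summed to 515.4 ± 72.82 molecules per cell in KO MZB, 378.3 ± 69.05 in WT MZB, 212.2 ± 41.46 in KO FoB and 227.5 ± 39.06 in WT FoB. Complex II summed to 77.7 ± 7.87 in KO MZB, 57.1 ± 9.0 in WT MZB, 33.2 ± 4.91 in KO FoB and 32.6 ± 6.04 in WT FoB. The 36 core and accessory subunits of complex I, to which its sums are limited here, came to 451.7, 335.7, 186.0 and 198.3 over the same 4 groups. Complex III summed to 177.0, 125.7, 69.6 and 71.4, and complex IV to 369.1, 270.9, 149.7 and 152.9. These sums run over different numbers of genes, so they do not give the amount of a complex.

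Single genes ranged over 2 orders of magnitude in mean level over the 10 libraries. Atp5b, the catalytic beta subunit of the ATP synthase, was highest at 52.5 molecules per cell, followed among the leading genes of the other complexes by Uqcrh, the hinge protein of complex III, at 40.0, and by Cox4i1, the ubiquitous form of a regulatory complex IV subunit, at 34.2. Among accessory subunits of complex I the peak was 24.0 for Ndufa3, and complex II peaked at 22.4 for the flavoprotein Sdha. The lowest values were those of Cox7a1 in complex IV (0.497) and Ndufaf5, an assembly factor of complex I (0.861). Ndufa11, an accessory membrane subunit of complex I, had a value of 1.08. The other ends of the range were Ndufs1 among complex I core subunits (5.0), Ndufaf1 among its assembly factors (4.22), Uqcr11 in complex III (4.14), Sdhc in complex II (7.20) and Atp5g1 in complex V (5.67). The assembly factors of complex I summed to 21.3, 18.3, 8.32 and 8.99 molecules per cell in KO MZB, WT MZB, KO FoB and WT FoB, against 353.7, 259.5, 144.6 and 151.9 for its accessory subunits. Levels of different genes are comparable only as far as the authors' length correction holds: the value of 1 read matched annotated exon length within 2-fold of the median for 89.7% of all genes but for 61.4% of these genes. For Ndufa11 that value corresponds to a length 3.87 times the annotated exons, so its level cannot be set beside those of other genes. A constant length cancels in its differences between groups. Whether reads from outside its annotated exons enter those differences was not tested.

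**Figure D2:**
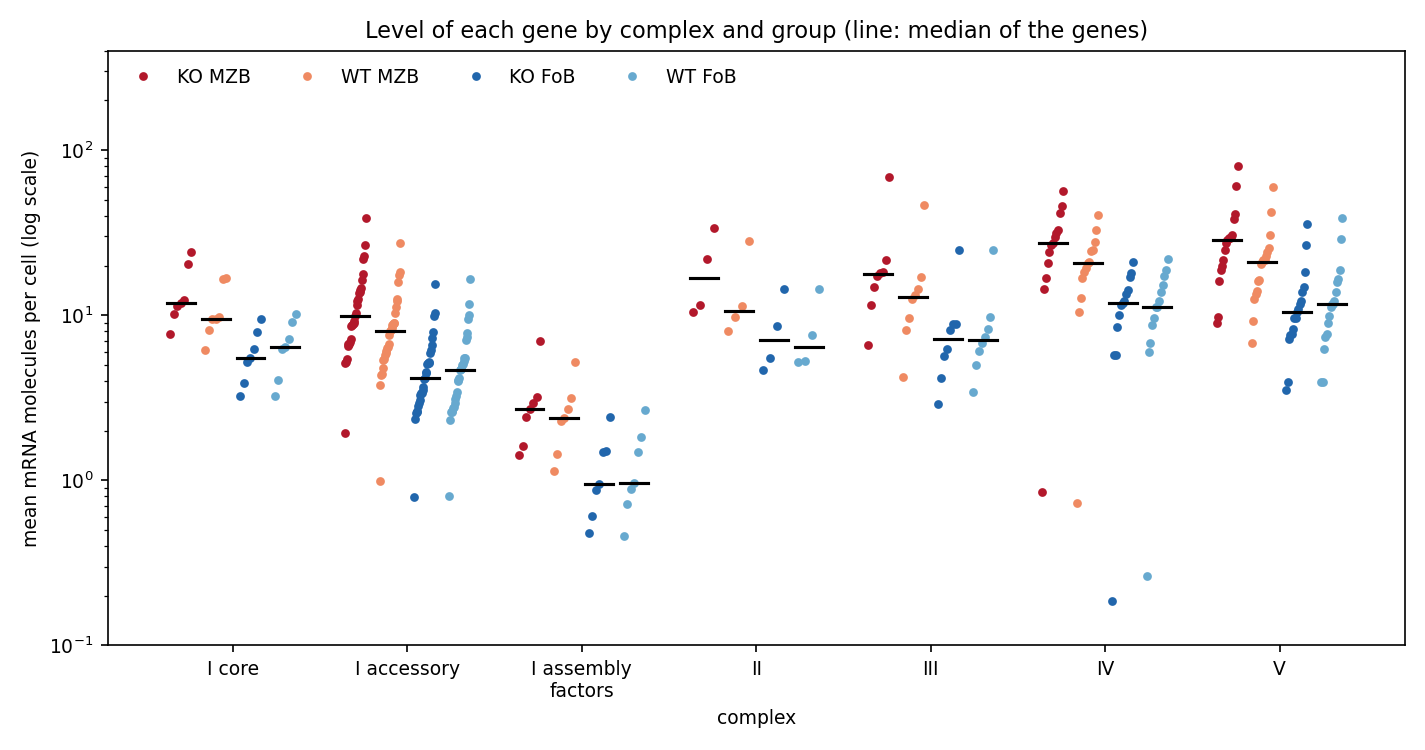
Mean level of each gene by complex and group, in mRNA molecules per cell on a log axis. Each point is 1 gene's group mean and each line the median over the genes of a complex in that group, and the pseudogene is not drawn. The median of the assembly factors of complex I lies below the medians of its core and accessory subunits in all 4 groups, and Cox7a1 (0.497 over the 10 libraries) lies far below the other complex IV genes.

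Loss of LSD1 in marginal zone B cells went with more mRNA of these genes per cell, and the median of all genes was higher too. Per cell, 12 of the 86 rose and 0 fell in KO MZB against WT MZB (limma, Benjamini-Hochberg adjusted p under 0.05), while 13.3% of all genes rose and 0.702% fell. The median log2 difference was 0.42 over these genes and 0.32 over all genes. Above 0 were 84 of the 86 and 8885 of all 9690 genes. After rescaling 3 rose (Sdhb, Ndufa11 and Atp5k) and 1 fell (Ndufaf4), against 3.36% of all genes that rose and 1.9% that fell, and the medians were 0.10 and 0.02. With all 10 libraries, the counts called were thus near the background on both scales. The counts without a library, given next, come without the share of all genes called in the same fit. Single libraries moved the per-cell count: it was 1 without KO MZB library 2, 3 without WT MZB library 1 and 41 without WT MZB library 2. The rescaled count was 1 without KO MZB library 2 or WT MZB library 1, and 2 without KO MZB library 1 or WT MZB library 2.

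By complex, the genes that rose per cell were 0 of 7 core subunits, 6 of 29 accessory subunits and 0 of 7 assembly factors of complex I, 1 of 4 of complex II, 2 of 8 of complex III, 1 of 13 of complex IV and 2 of 17 of complex V. Besides the 3 genes that also rose after rescaling, they were the accessory complex I subunits Ndufa1, Ndufa13, Ndufb7, Ndufb9 and Ndufc1, with log2 differences of 0.66 to 0.72, the Rieske iron-sulfur protein Uqcrfs1 (0.62) and the small subunit Uqcr11 (0.61) of complex III, Cox6a1 of complex IV (0.60), and Atp5o, the stalk subunit of the ATP synthase that confers oligomycin sensitivity (0.59). The summed level of KO MZB over WT MZB was 1.35-fold for complex I, 1.36-fold for complex II, 1.41-fold for complex III, 1.36-fold for complex IV and 1.36-fold for complex V. For comparison, total mRNA was 1.27-fold higher in KO MZB than in WT MZB. After rescaling the 5 ratios were 1.08, 1.09, 1.13, 1.09 and 1.09. As a share of all mRNA, complexes I to IV did not overlap between the marginal zone groups and lay higher in KO MZB. Groups this small can separate by chance, and how many other gene sets do so is not given here. Complex I was at 0.394% and 0.402% in KO MZB against 0.374% to 0.382% in WT MZB. Complex II was at 0.0683% and 0.0688% in KO MZB against 0.0622% to 0.0660% in WT MZB. The higher share and rescaled sum of complex II rested largely on Sdhb, the 1 gene of its 4 that was called. After rescaling, the log2 differences of the 4 genes had a median of 0.01, with 2 above 0 and 2 below. Complex III was at 0.158% and 0.154% in KO MZB against 0.136% to 0.146% in WT MZB. Complex IV was at 0.326% in both KO MZB libraries against 0.302% to 0.309% in WT MZB. Complex V was at 0.439% and 0.468% in KO MZB against 0.405% to 0.439% in WT MZB, where the groups met.

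**Figure D3:**
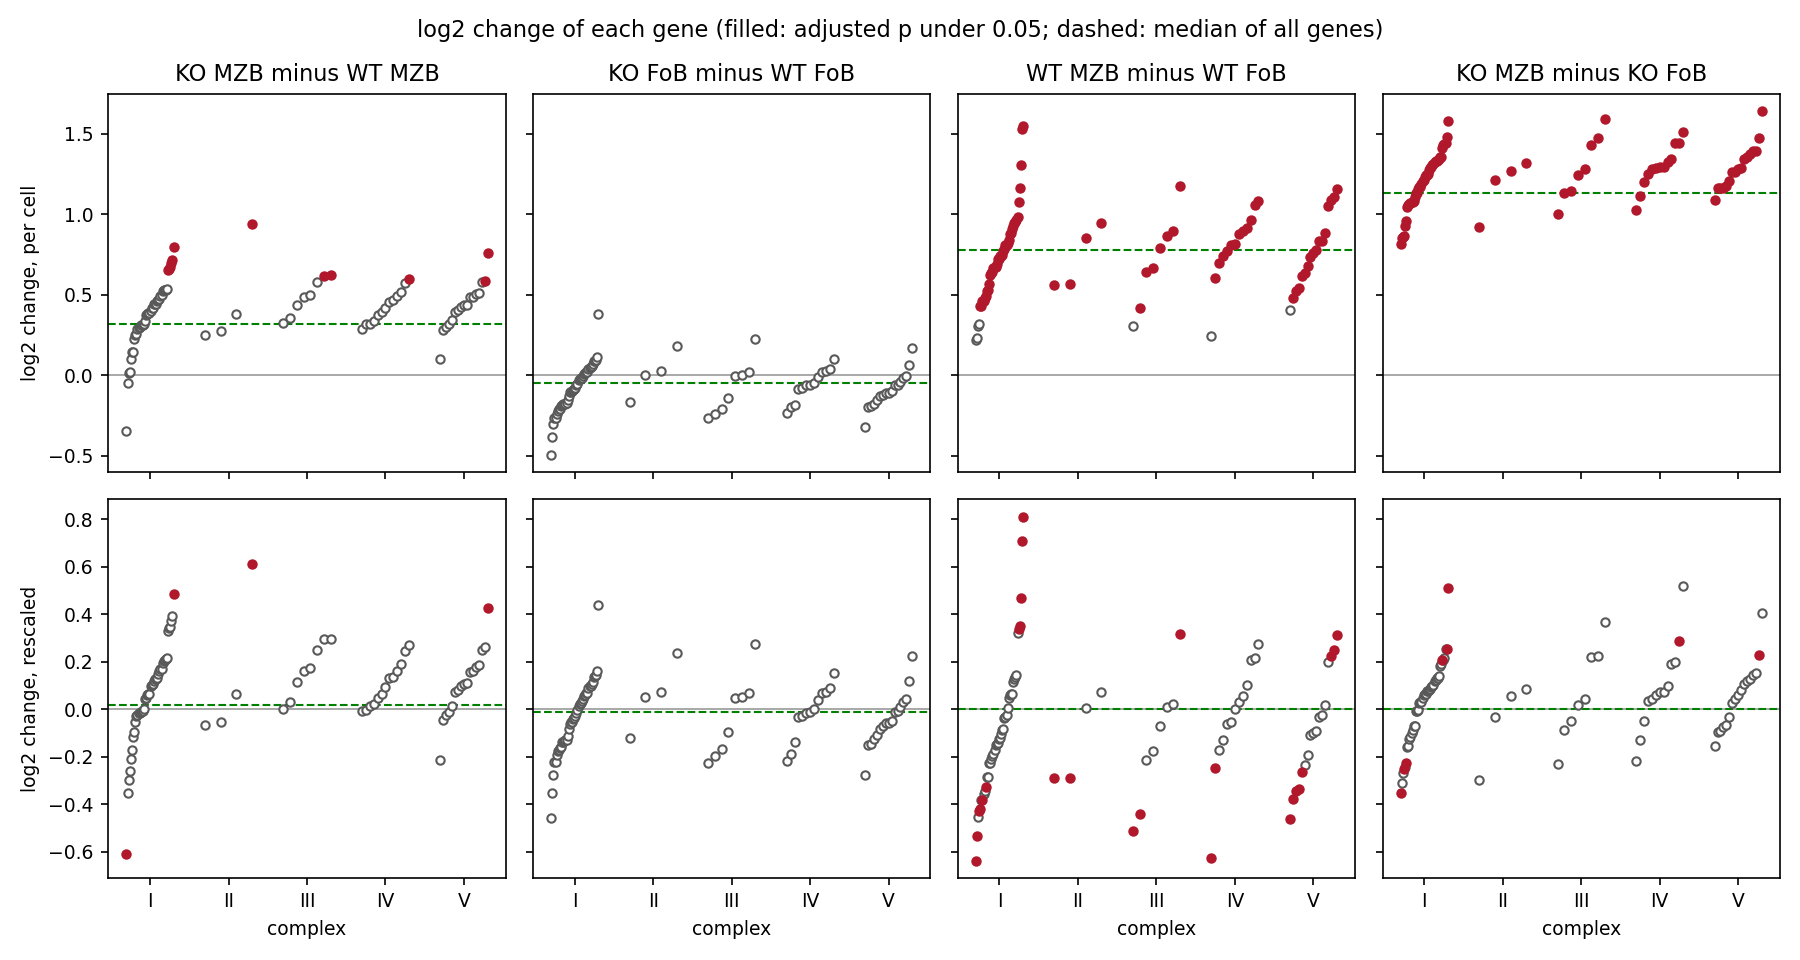
Log2 differences of each gene in 4 comparisons (columns) per cell (top) and after rescaling (bottom), by complex. Filled red points passed the limma test at an adjusted p under 0.05 and the dashed green line is the median of all genes. Per cell, the points follow the median of all genes (0.32, -0.05, 0.78 and 1.13), and after rescaling they scatter around 0.

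Sdhb, the iron-sulfur subunit that carries electrons through complex II, had the largest rise of the 86 genes in KO MZB. It was at 20.7 and 23.0 molecules per cell in KO MZB against 9.81, 12.7 and 11.4 in WT MZB, and at 8.91, 9.73 and 7.24 in KO FoB against 8.91 and 6.30 in WT FoB. Per cell, the marginal zone groups did not overlap and the follicular groups did. The log2 difference in marginal zone cells was 0.94 ± 0.20 (SE, limma adjusted p = 0.000361), a ratio of means of 1.93. Rescaled levels were 13.4 and 13.1 in KO MZB against 8.68, 8.66 and 8.38 in WT MZB, with a log2 difference of 0.61 ± 0.07 (limma adjusted p = 0.00194). Sdhb passed the test on both scales under each alternative tried for it and without any single library. In follicular cells it was at rescaled levels of 13.2, 12.8 and 11.6 in KO FoB against 11.2 and 9.94 in WT FoB. These levels did not overlap and were higher in the knockout as well. Their log2 difference of 0.24 ± 0.07 did not pass (limma adjusted p = 0.229). Sdhb lies on chromosome 4 at 140961271 to 140979198 (GRCm38.p6), 4.36 Mb from Kdm1a. Whether its distance to the targeted gene bears on the result was not tested.

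The other subunits of complex II did not pass the test in KO MZB. Sdha, the flavoprotein that oxidises succinate, was at 30.7 and 36.9 molecules per cell in KO MZB against 23.3, 32.3 and 28.4 in WT MZB (log2 difference 0.28, limma adjusted p = 0.277). The membrane anchor Sdhc was at 9.58 and 11.4 in KO MZB against 7.31, 8.73 and 7.86 in WT MZB (0.38, adjusted p = 0.131 by limma). The second anchor, Sdhd, was at 11.2 and 11.8 in KO MZB against 7.51, 12.1 and 9.69 in WT MZB (0.25, adjusted p = 0.301 by limma). After rescaling the 3 log2 differences were -0.05, 0.06 and -0.07, so the call in complex II rested on 1 of its 4 genes.

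In complex I, Ndufa11 was at 1.77 and 2.09 molecules per cell in KO MZB against 0.812, 1.01 and 1.15 in WT MZB, with 0.799, 0.942 and 0.621 in KO FoB against 0.916 and 0.680 in WT FoB. KO MZB lay above the other 3 groups, which overlapped one another. Its log2 difference between KO MZB and WT MZB was 0.79 ± 0.19 per cell (limma adjusted p = 0.00181) and 0.48 ± 0.11 after rescaling (adjusted p = 0.0346). Without KO MZB library 2 neither call held, with adjusted p of 0.124 per cell and 0.25 after rescaling, and the rescaled call was also lost without KO MZB library 1, WT MZB library 1 or 2, or WT FoB library 1 or 2 (adjusted p of 0.0518 to 0.134). The annotation names a copy, Ndufa11b, whose sequence was not compared here, and how reads were shared between copies is not stated, so its value is uncertain.

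Ndufaf4 is an assembly factor of complex I, and the only one of the 86 genes with a lower rescaled level in KO MZB that passed the test. Its rescaled levels were 1.52 and 1.42 in KO MZB against 2.50, 2.34 and 2.37 in WT MZB, and 1.15, 1.36 and 1.64 in KO FoB against 1.19 and 1.29 in WT FoB. KO MZB levels lay below all WT MZB libraries and within the range of the follicular ones. The log2 difference in marginal zone cells was -0.61 ± 0.12 (limma adjusted p = 0.0153). Per cell Ndufaf4 was at 2.34 and 2.51 in KO MZB against 2.83, 3.44 and 3.22 in WT MZB, a difference of -0.34 ± 0.18 that did not pass (adjusted p = 0.149). The rescaled call was lost without KO MZB library 1, KO MZB library 2 or WT MZB library 1, with adjusted p of 0.0723, 0.16 and 0.0642. Ndufaf4 overlaps the gene Gm46848, and whether counting used strand is not stated.

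In complex V, Atp5k, the small membrane subunit e, was at 18.3 and 24.8 molecules per cell in KO MZB against 11.3, 12.7 and 13.7 in WT MZB, and at 8.43, 9.30 and 6.89 in KO FoB against 10.5 and 7.54 in WT FoB. The marginal zone groups did not overlap, and KO MZB library 2 was the higher of its pair. The log2 difference was 0.76 ± 0.20 per cell (limma adjusted p = 0.00606) and 0.43 ± 0.10 after rescaling (adjusted p = 0.0323). Without KO MZB library 2 the difference was 0.54 per cell (adjusted p = 0.416) and 0.31 after rescaling (adjusted p = 0.301). The rescaled call was also lost without WT MZB library 1, 2 or 3 (adjusted p of 0.0525 to 0.0861). Atp5k has 4 annotated pseudogene copies, so its count is uncertain.

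**Figure D4:**
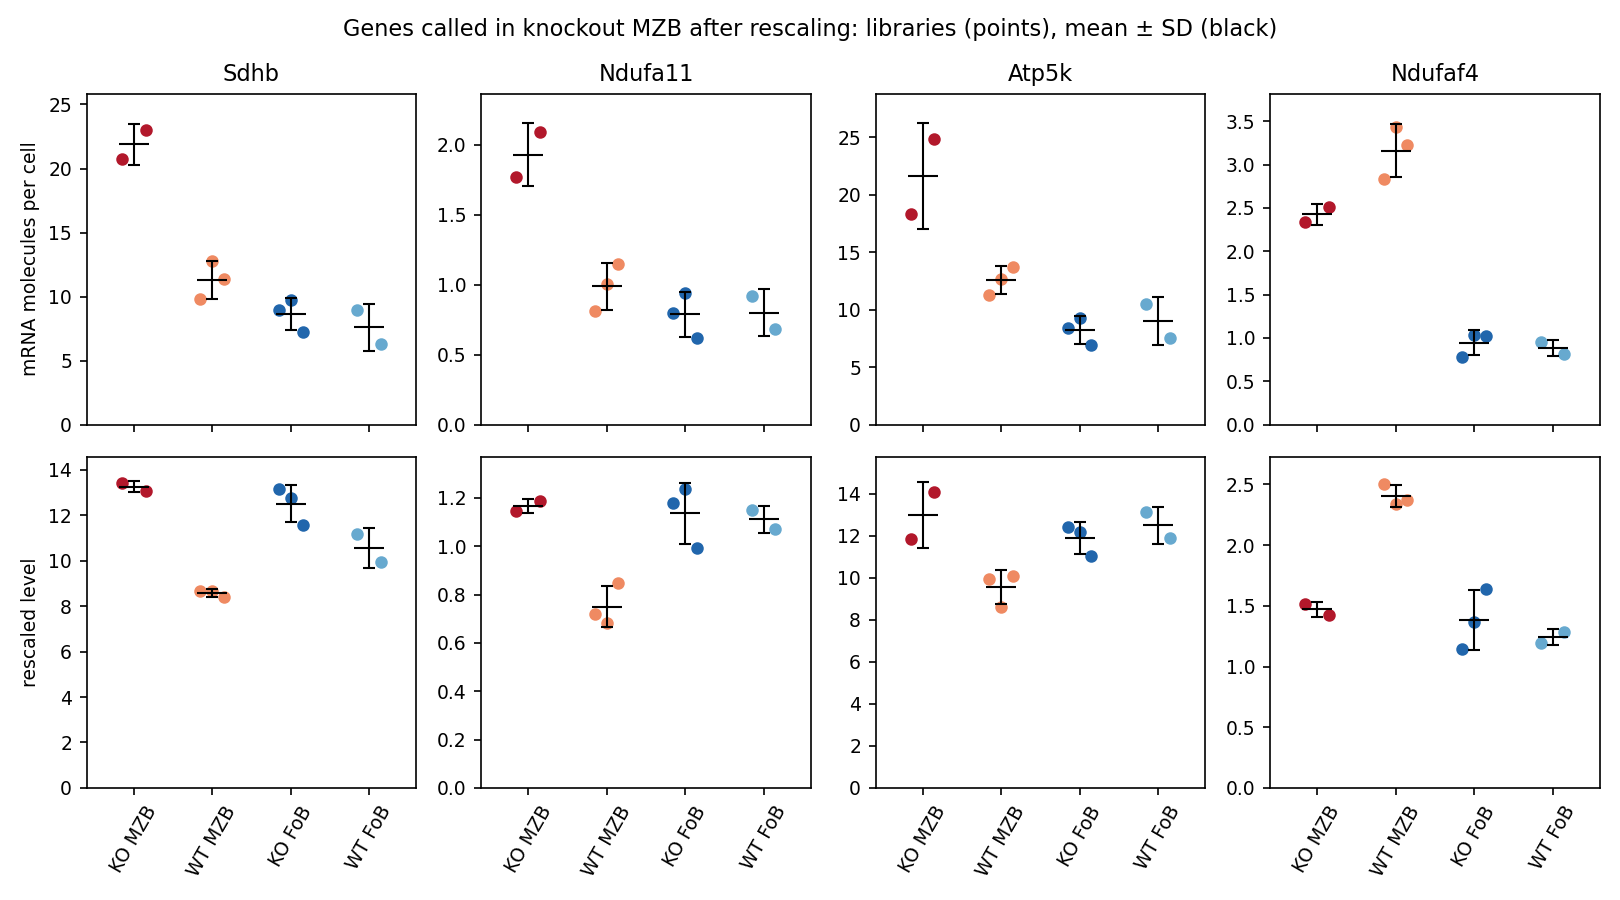
Level of Sdhb, Ndufa11, Atp5k and Ndufaf4 in each library, per cell (top) and rescaled (bottom), with group means and SD. KO MZB lies above WT MZB for the first 3 genes on both scales and below it for Ndufaf4. KO FoB and WT FoB overlap per cell for all 4 genes, and after rescaling they do not overlap for Sdhb.

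Some cell type markers moved between the same marginal zone groups. The summed rescaled level of 4 of 4 follicular markers was 78.4 in both KO MZB libraries against 50.8 to 60.4 in WT MZB, and 290.8 to 307.5 in KO FoB against 280.4 to 291.3 in WT FoB. That of 6 of 6 marginal zone markers was 279.5 to 289.8 in KO MZB against 327.6 to 358.0 in WT MZB. In follicular cells it was 88.7 to 94.5 in KO FoB against 87.9 to 95.7 in WT FoB. Of these 6 markers, 2 (Cr2 and S1pr3) fell in KO MZB after rescaling, and 0 passed per cell. Per cell the 6 summed to 447.4 to 492.2 in KO MZB against 402.6 to 485.8 in WT MZB. Macrophage markers (3 of 7 in the table) summed to 4.92 to 5.89 in KO MZB against 1.80 to 3.27 in WT MZB. Of these 3, Ly6c2 (means of 2.41 in KO MZB and 0.173 in WT MZB) and Itgam (0.952 and 0.255) passed. Cd68 did not pass, at means of 2.04 in KO MZB and 2.20 in WT MZB. The dendritic marker Flt3 (1 of 4) was at 1.24 and 1.32 in KO MZB against 0.231 to 0.3 in WT MZB. In follicular cells macrophage markers summed to 4.64 to 6.49 in KO FoB against 1.77 to 2.41 in WT FoB. There too, Ly6c2 and Itgam passed after rescaling and Cd68 did not. Flt3 was at 0.562 to 0.672 in KO FoB against 0.119 and 0.141 in WT FoB. The T cell, platelet and endothelial lists, with 1 gene each in the table, were at 4.60 to 4.79, 1.36 and 21.2 to 22.0 in KO MZB against 2.71 to 3.36, 0.673 to 0.778 and 15.9 to 17.7 in WT MZB. B cell markers (5 of 5) summed to 716.1 to 729.8 in KO MZB against 671.7 to 718.1 in WT MZB, and the 1 plasma cell marker of 4 in the table was at 8.95 to 10.5 in KO MZB against 8.49 to 9.88 in WT MZB. The NK cell, neutrophil and erythroid lists had 0 genes in the table. The part of these markers in the results on KO MZB was not tested.

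The 4 genes called after rescaling were chosen, after their values were seen, for a look at their promoters, since NRF1 is a known activator of respiratory chain genes and each holds its motif. The 130 bases before each gene's start are printed from the RefSeq promoter table (GRCm38.p6), on the gene's strand from 5′ to 3′, with the letters of the NRF1 motif in capitals. The windows are chr4:140961141-140961270 on the plus strand for Sdhb, chr17:56717632-56717761 on the plus strand for Ndufa11, chr5:108434400-108434529 on the minus strand for Atp5k and chr4:24897953-24898082 on the plus strand for Ndufaf4.
Sdhb: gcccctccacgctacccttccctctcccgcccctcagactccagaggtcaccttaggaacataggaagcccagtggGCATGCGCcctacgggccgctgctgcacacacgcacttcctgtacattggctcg
Ndufa11: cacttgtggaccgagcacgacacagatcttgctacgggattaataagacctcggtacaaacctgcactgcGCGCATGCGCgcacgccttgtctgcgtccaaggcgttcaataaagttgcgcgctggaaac
Atp5k: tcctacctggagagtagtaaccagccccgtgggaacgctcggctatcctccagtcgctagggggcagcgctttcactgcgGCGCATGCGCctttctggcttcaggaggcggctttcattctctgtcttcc
Ndufaf4: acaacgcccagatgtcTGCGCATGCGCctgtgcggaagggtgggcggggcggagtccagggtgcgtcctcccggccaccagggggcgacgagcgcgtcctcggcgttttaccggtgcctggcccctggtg
The motif was searched as GCGCATGC or TGCGCATG on either strand, spellings that overlap one another, in windows of 250 bases before to 50 after the start. It was in 19.2% of the 78 promoters matched for 73 of these genes, in 6.72% of promoters of the table's genes and in 3.29% of all promoters. The genes that held it included Ndufa6, Ndufa8, Ndufb6 and Ndufb8 of complex I, Uqcr11 and Uqcrc1 of complex III, Cox5b and Cox6a1 of complex IV, and Atp5g2 and Atp5l of complex V. Uqcr11 and Cox6a1 among them rose per cell in KO MZB and the others named here did not pass on either scale. The YY1 core AAGATGGC was in 14.1% of these promoters, 5.22% of those of the table's genes and 2.75% of all. The ETS core CCGGAAG, which GABP binds, was in 24.4%, 20.5% and 8.86%, the CCAAT box in 42.3%, 38.2% and 37.4%, and the SP/KLF box GGGCGG in 43.6%, 63.5% and 35.7% of the same 3 sets. These are matches of letters and no measure of binding.

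In follicular B cells none of the 86 genes passed the test. Per cell, 0 rose and 0 fell in KO FoB against WT FoB, while 0.413% of all genes rose and 0.299% fell. After rescaling 0 rose and 0 fell, while 0.454% of all genes rose and 0.134% fell. At an unadjusted p under 0.05, limma found 1 gene per cell and 7 after rescaling, and limma voom on recovered reads found 0 at the adjusted threshold. How many of all genes had an unadjusted p under 0.05 is not given here. The median log2 difference was -0.07 per cell, against -0.05 over all genes, and -0.02 after rescaling. The summed levels of KO FoB over WT FoB were 0.938-fold for complex I, 1.02-fold for complex II, 0.976-fold for complex III, 0.979-fold for complex IV and 0.933-fold for complex V. For comparison, total mRNA was 0.967-fold. All 7 core subunits of complex I were below 0 per cell, with a median of -0.21, and 0 of them passed. Of all 9690 genes, 6102 were below 0 per cell. The widest rescaled differences were -0.46 for Ndufa2 (limma adjusted p = 0.269) and 0.44 for Ndufc2 (adjusted p = 0.186).

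The difference between the knockout effects in marginal zone and follicular cells was tested as an interaction. Per cell, 1 of the 86 genes differed, in the positive direction, and 0 in the negative one, while 2.02% of all genes differed in the positive direction and 0.32% in the negative one. After rescaling 0 differed in either direction, against 0.165% and 0.144% of all genes. There, 16 of the 86 had an unadjusted p under 0.05 by limma, a count without the share of all genes at that threshold. The 1 gene that differed per cell was Ndufa2, an accessory subunit of complex I. It was at 8.79 and 8.43 molecules per cell in KO MZB against 4.52, 6.70 and 6.56 in WT MZB, and at 3.14, 4.66 and 2.28 in KO FoB against 5.55 and 3.93 in WT FoB. The marginal zone groups did not overlap and the follicular groups did. Its difference between effects was 1.03 ± 0.29 (limma adjusted p = 0.0316), made up of 0.54 ± 0.20 in marginal zone cells (adjusted p = 0.058) and -0.49 ± 0.20 in follicular cells (adjusted p = 0.782), neither of which passed alone. After rescaling it was 0.67 ± 0.24 and did not pass (adjusted p = 0.138), and over the alternatives the adjusted p ran from 0.00122 to 0.402. Ndufa2 overlaps the protein-coding gene Tmco6, and whether counting used strand is not stated. The call of Ndufa2 was lost without KO MZB library 1 or 2, WT MZB library 1, KO FoB library 3 or WT FoB library 1. Without KO FoB library 2, 14 of the 86 genes differed between effects per cell, and without WT MZB library 2, 13 did. The share of all genes that differed in these 2 fits is not given here, so the counts have no background.

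Wild-type marginal zone B cells held more mRNA of these genes per cell than wild-type follicular B cells, as they held more mRNA overall. Per cell, 79 of 86 were higher and 0 lower in WT MZB, while 84.2% of all genes were higher and 1.67% lower. The median log2 difference was 0.75 against 0.78 over all genes, and total mRNA was 1.75-fold higher in WT MZB. After rescaling 9 were higher and 17 lower, against 24.9% of all genes higher and 25.1% lower, so both shares lay below the background. The rescaled summed levels of WT MZB over WT FoB were 0.916-fold for complex I, 0.950-fold for complex II, 0.954-fold for complex III, 0.958-fold for complex IV and 0.898-fold for complex V. Of the genes called on both scales, 9 had the same direction and 11 the opposite one. The per-cell count was lower without WT FoB library 2 and the rescaled count without WT FoB library 1, fits that leave 1 library in that group. How many of all genes were called in these fits is not given here, so the shifts have no background.

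The 17 genes with a lower rescaled level in WT MZB came from all 5 complexes. They were 2 of 7 core subunits and 4 of 29 accessory subunits of complex I, 2 of 4 of complex II, 2 of 8 of complex III, 2 of 13 of complex IV and 5 of 17 of complex V. Cox6a1, a nuclear subunit of cytochrome c oxidase, was at rescaled levels of 12.3, 15 and 13.9 in WT MZB against 21.6 and 20.9 in WT FoB. The groups did not overlap, and the log2 difference was -0.62 ± 0.11 (limma adjusted p = 0.000899). Uqcr11, a small subunit of complex III, was at 3.17, 3.06 and 3.42 in WT MZB against 5.03 and 4.41 in WT FoB, with a difference of -0.51 ± 0.10 (adjusted p = 0.00162). The others were Ndufb7 (-0.64), Ndufa2 (-0.53), Atp5d (-0.46), Uqcrc1 (-0.44), Ndufa11 (-0.43), Ndufs7 (-0.42), Ndufa13 (-0.38), Atp5k (-0.38), Atp5o (-0.34), Atp5a1 (-0.34), Ndufv1 (-0.33), Sdhb (-0.29), Sdhc (-0.29), Atp5b (-0.26) and Cox7a2 (-0.25). Atp5a1 and Atp5b belong to the catalytic head of the ATP synthase, and Ndufv1 and Ndufs7 to the electron path of complex I. Sdhb, Ndufa11 and Atp5k are the genes that rose in KO MZB, and both comparisons use the WT MZB libraries. Without WT FoB library 1 the calls of these 3 genes, of Atp5b, Cox7a2, Ndufa2 and Sdhc were lost, and those of Atp5b, Cox7a2, Ndufa2 and Sdhc also without some other single libraries. Cox6a1 and Uqcr11 kept their calls without any single library.

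Higher rescaled levels in WT MZB were found for 3 of 29 accessory subunits and 2 of 7 assembly factors of complex I, 1 of 8 genes of complex III, 3 of 17 of complex V and 0 of complexes II and IV. Ndufaf4 had the largest difference, with rescaled levels of 2.50, 2.34 and 2.37 in WT MZB against 1.19 and 1.29 in WT FoB (log2 difference 0.81 ± 0.12, limma adjusted p = 0.000205). It is also the gene that fell in KO MZB, a comparison that uses the same WT MZB libraries. Ndufc2, an accessory membrane subunit of complex I, was at 5.46, 6.87 and 5.70 in WT MZB against 3.98 and 3.15 in WT FoB (0.71 ± 0.12, adjusted p = 0.000775 by limma). Neither gene's groups overlapped. The accessory subunit Ndufa12 differed by 0.47 (adjusted p = 0.000575), Uqcrb of complex III by 0.32 (adjusted p = 0.035) and Atp5pb, the peripheral stalk subunit b, by 0.32 (adjusted p = 0.00731), all by limma. Ndufaf7, Ndufab1, Atp5j and Atp5c1 differed by 0.35, 0.34, 0.25 and 0.23. Ndufaf4, Ndufc2 and Atp5pb kept their calls without any single library, Ndufaf7 lost its call without WT FoB library 2 (adjusted p = 0.114), and Uqcrb without WT MZB library 1 or 3 or WT FoB library 1 (adjusted p of 0.0714 to 0.269).

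Between the knockout groups, all 86 genes were higher per cell in KO MZB than in KO FoB and 0 were lower, while 97.3% of all genes were higher and 0.444% lower. The median log2 difference was 1.26 against 1.13 over all genes, and total mRNA was 2.31-fold higher. After rescaling 5 were higher and 3 lower, against 18.1% of all genes higher and 17.1% lower. The summed levels of KO MZB over KO FoB were 2.43-fold per cell and 1.02-fold rescaled for complex I, 2.34 and 0.978 for complex II, 2.54 and 1.07 for complex III, 2.47 and 1.03 for complex IV and 2.43 and 1.02 for complex V. Ndufaf7, a methyltransferase needed for complex I assembly, was at rescaled levels of 1.76 and 2.10 in KO MZB against 1.19, 1.28 and 1.32 in KO FoB, with no overlap (0.51 ± 0.10, limma adjusted p = 0.00255). Cox7b of complex IV was at 10.4 and 9.90 in KO MZB against 7.73, 9.26 and 7.84 in KO FoB, again with no overlap (0.29 ± 0.09, adjusted p = 0.0233). The other higher genes were Ndufa10 (0.25), Atp5c1 (0.23) and Ndufb11 (0.21), and the lower ones Ndufs7 (-0.35), Ndufaf3 (-0.25) and Ndufa5 (-0.23). The rescaled count of 8 was 14 without KO FoB library 2 and 5 without WT MZB library 3. It was lower without either KO MZB library or either WT FoB library, fits that leave 1 library in a group. How many of all genes were called in these fits is not given here, so the counts have no background. Ndufaf7 kept its call without any single library, and Cox7b lost it without KO MZB library 1 or 2 or KO FoB library 1 or 3. Ndufa10 lost its call without KO MZB library 2 (0.15, adjusted p = 0.247), KO FoB library 1 or KO FoB library 3 (adjusted p of 0.0517 and 0.0601).

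Some subunits are encoded by several genes, whose levels differed. Cox7a1, known as the heart and muscle form of complex IV subunit 7a, was at 0.853 molecules per cell in KO MZB, 0.727 in WT MZB, 0.185 in KO FoB and 0.264 in WT FoB, which rest on group means of about 2 to 6 reads and allow no comparison of groups. The ubiquitous form Cox7a2 was at 14.4, 10.5, 5.74 and 6.79 over the same groups, and Cox7a2l, a related factor that helps join complexes III and IV into supercomplexes, at 32.8, 24.8, 14.3 and 13.8. The order Cox7a1, Cox7a2, Cox7a2l from low to high held in every library. Atp5g1, Atp5g2 and Atp5g3 encode the same mature subunit c of the ATP synthase ring. Atp5g1 averaged 5.67, Atp5g2 18.9 and Atp5g3 19.7 molecules per cell over the 10 libraries. Atp5g2 and Atp5g3 overlapped, at rescaled means of 18.4 ± 0.138 and 18.1 ± 0.981 in KO MZB, and Atp5g1 lay below both in every library. None of these 6 genes passed the test in either knockout comparison. Cox6a1, Cox6b1, Cox8a and Ndufa4, counted here with complex IV, averaged 18.1, 25.3, 28.2 and 15.6 molecules per cell.

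**Figure D5:**
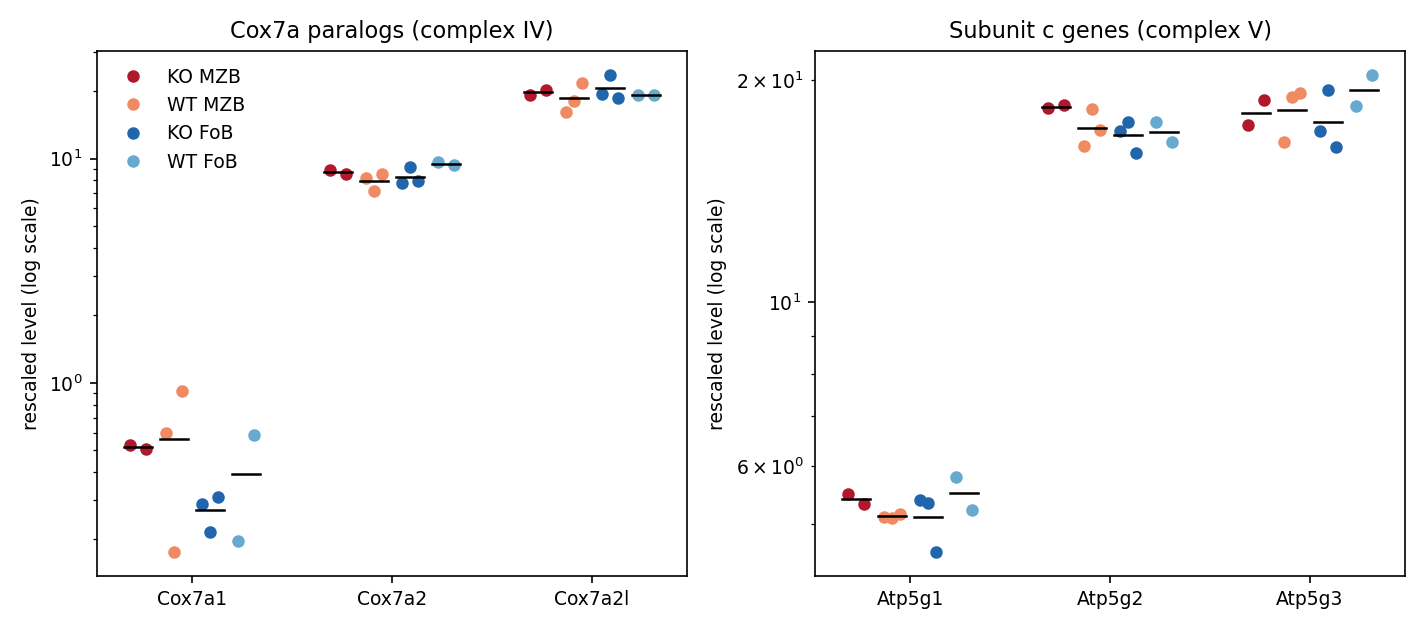
Rescaled level of the Cox7a genes (left) and of the genes for subunit c of the ATP synthase (right) in each library, on log axes, with group means as lines. Cox7a1 lies far below Cox7a2 and Cox7a2l, and Atp5g1 below Atp5g2 and Atp5g3, in all 4 groups.

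Lists of other genes of the pathway were read against the share of all genes called, which in KO MZB was 13.3% higher per cell and 3.36% higher after rescaling. Of 40 tested assembly factors outside the symbol rule, 3 rose per cell in KO MZB (Dmac1 by 0.62, Uqcc2 by 0.56 and Atpaf2 by 0.54 on the log2 scale) and 0 after rescaling. Of 12 genes of coenzyme Q synthesis, 1 rose per cell, Coq10a, at 4.78 ± 0.0178 in KO MZB against 3.19 ± 0.498 in WT MZB (0.55, limma adjusted p = 0.0383), and 0 after rescaling. Of 8 nuclear subunits and electron carriers, 16 regulators and 7 genes of ATP and phosphate exchange, 0 passed on either scale. In KO FoB 0 genes of these 5 lists passed on either scale, where 0.413% of all genes rose per cell and 0.454% after rescaling. These counts lie at or below the background.

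Between the wild-type cell types, 24.9% of all genes were higher and 25.1% lower in WT MZB after rescaling, and the same lists are given beside those shares. Of the 16 regulators, 3 were higher and 6 lower in WT MZB. Myc, a transcription factor that promotes growth and mitochondrial gene expression, was at a rescaled mean of 14.4 ± 0.935 in WT MZB against 6.86 ± 0.696 in WT FoB (log2 difference 1.04, limma adjusted p = 2.62e-06). Polrmt, the mitochondrial RNA polymerase, was at 2.11 ± 0.191 in WT MZB against 3.46 ± 0.0934 in WT FoB (-0.65, adjusted p = 0.000104). Of the 7 exchange genes 3 were higher and 0 lower: Slc25a4, an ADP/ATP carrier, was at 11.5 ± 0.427 in WT MZB against 6.24 ± 0.459 in WT FoB (0.85, adjusted p = 5.71e-06), and Vdac1 and Slc25a5 differed by 0.34 and 0.31. Of the 40 assembly factors 9 were higher and 2 lower, together fewer than the background, among them Foxred1 (0.52), Tmem126a (0.78) and Sdhaf4 (0.52), and of the 12 coenzyme Q genes 2 were higher and 0 lower. Of the 8 nuclear subunits and carriers, where Sdhaf4 was listed under an older symbol as well, 2 were higher and 1, the complex III subunit Cyc1, was lower (-0.33, adjusted p = 0.00589 by limma).

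The genes of the 5 complexes varied less over the libraries than genes in general, and their replicates varied a little more. The median SD of rescaled log2 levels over the 10 libraries was 0.153 for these genes and 0.189 for all genes, and the median SD within groups was 0.129 and 0.112. With a mean level of at least 5 molecules per cell, the values were 0.149 for 67 of these genes and 0.170 for 3411 genes over the 10 libraries, and 0.126 and 0.096 within groups. The core subunit Ndufs1 was the steadiest, at rescaled levels of 4.43 to 4.92 in the 10 libraries, followed by Sdha. Cox7a1, at few reads, and Ndufaf4 varied most. Another gene overlaps 28 of the 86, a protein-coding one 14, and 13 have named copies, so the counts of those are uncertain.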

How the data were processed

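Poly(A)-selected RNA of sorted splenic B cells was sequenced with a stranded mRNA kit, per the labels' protocols, in 10 libraries, grouped by the cell type and LSD1 status in their labels. Each gene of the deposited table has a signal in every library, which the authors call mRNA per cell. STAR and mm10 are named per the submitters' processing notes. The counter, annotation, gene filter and the step from reads to molecules per cell were not given in the sources used here. Entrez identifiers matched a symbol for 9681 of 9690 genes (RefSeq, GRCm38.p6). Each gene's values fell on steps of 1 read, which gave whole reads for 100% of genes (deviations from whole reads up to 2.9e-05).

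Differences were tested over the whole table in R 4.3.3 by limma 3.58.1 from log2(value + 0.3), a scale that understates the change of low genes, with 1 coefficient per group over all 10 libraries and an intensity trend. Tests were two-sided, with Benjamini-Hochberg adjustment over all genes and a threshold of 0.05. Genes needed at least 0.3 in at least 2 libraries, which all 9690 had. Rescaling took out of each library the trimmed mean of its log-ratios against the average library, with 0.3 of the ratios and 0.05 of the levels trimmed at each end. The prior degrees of freedom were 86.9 per cell and 4.97 rescaled, so the per-cell test borrows most of its spread from all genes. The script was tested on simulated data. Alternatives were other pseudocounts and filters, the replicate number as a block, limma voom with trimmed-mean factors on recovered reads, and leaving out each library. Complex sums have no test. No library was left out, and no pair of libraries was identical. Each library's depth limits precision for low genes.

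The genes and lists were chosen with earlier results of these data known. Named are, in each complex, the genes of highest and lowest mean and the called gene with the smallest p in each comparison and direction, all genes called after rescaling in a knockout comparison, all of complex II, and the paralogs; 1 gene that this choice names is not reported here. Other names, such as the further called genes, Ndufs7, Ndufa10 and the promoter set, were chosen after their values were seen. Figures used matplotlib 3.10.9, and tables Python 3.11.15 with pandas 2.3.3.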

Additional observations from a re-analysis of the deposited data

Results flagged for a closer look

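For Ndufa2, the difference between the knockout effects in marginal zone and follicular cells was 1.03 on the log2 scale per cell, which passed the interaction test (limma adjusted p = 0.0316). It did not pass after rescaling (adjusted p = 0.138), with the replicate number as a block, with a pseudocount of 0.1, by limma voom or on leaving out each of 5 libraries in turn, and over the alternatives the adjusted p ran from 0.00122 to 0.402. Ndufa10, an accessory complex I subunit, was rescaled at 9.97 and 11.6 in KO MZB against 9.0, 9.63 and 9.17 in WT MZB, and at 8.88, 9.53 and 8.47 in KO FoB against 9.81 and 9.89 in WT FoB. Its KO MZB libraries all lay above WT MZB and its KO FoB libraries all below WT FoB, a difference between effects of 0.34 ± 0.11 that did not pass the interaction test (limma adjusted p = 0.123). Ndufc2 was rescaled at 5.43 and 5.14 in KO MZB against 5.46, 6.87 and 5.70 in WT MZB, and at 4.33, 5.06 and 5.40 in KO FoB against 3.98 and 3.15 in WT FoB. The directions were the reverse of those of Ndufa10, with a difference between effects of -0.61 ± 0.18 that did not pass (limma adjusted p = 0.103). In marginal zone cells Ndufc2 was separated only narrowly, at 5.43 in KO MZB against 5.46 in WT MZB. Ndufa10 and Ndufc2 were flagged for separation in opposite directions, which groups this small can show by chance. The share of all genes with such a pattern is not given here, so it has no background.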

How the results depend on the processing

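The scale moved most counts. Apart from rescaling, the share of all genes called under each alternative is not given here. In KO MZB against WT MZB the 12 calls per cell were 4 after rescaling, 21 with a pseudocount of 1, 4 by limma voom and 1 to 41 on leaving out single libraries; the 4 rescaled calls were 1 to 5. In KO FoB against WT FoB the count was 0 throughout. In WT MZB against WT FoB the 79 calls were 26 after rescaling, 24 by voom and 51 to 84 on leaving out single libraries, and the 26 rescaled calls were 12 to 31. In KO MZB against KO FoB the 86 calls were 8 after rescaling, 6 by voom and 86 without any library, and the 8 rescaled calls were 1 to 14. The 1 difference between knockout effects was 0 after rescaling or with a pseudocount of 0.1, 5 with a pseudocount of 1, 2 among genes with at least 1 molecule in 2 libraries and 0 to 14 on leaving out single libraries; the 0 rescaled ones were 0 to 2.

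Rescaled sums were, in the order KO MZB, WT MZB, KO FoB and WT FoB, 273.1, 253.9, 268.8 and 277.2 for complex I, 46.98, 43.15, 48.06 and 45.43 for complex II, 107.2, 94.94, 100.4 and 99.5 for complex III, 223.3, 205.0, 215.8 and 213.9 for complex IV, and 311.2, 285.3, 306.4 and 317.7 for complex V.

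With the replicate number as a block, the calls in KO MZB were 3 per cell and 2 after rescaling, and the difference between effects had 0. Groups shared only 2 numbers, and deviations of same-numbered libraries correlated at 0.21 and 0.16 in the marginal zone pairs, 0.05 and -0.06 in the follicular ones, 0.12 and 0.11 between the knockout groups and -0.01 and -0.14 between the wild-type ones. With 2 numbers each, none of these establishes a pairing.

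Relative to the rest of the mRNA some genes changed direction, on rescaling and by voom, in WT MZB vs WT FoB: Atp5b (-0.26 and -0.27), Atp5g1 (-0.10 and -0.11), Atp5g3 (-0.09 by both), Atp5k (-0.38 and -0.40), Atp5mpl (-0.03 and -0.05), Cox4i1 (-0.00 by voom), Cox6b1 (-0.17 and -0.18), Cox7a2 (-0.25 and -0.26), Cox7a2l (-0.05 and -0.06), Cox8a (-0.06 and -0.07), Ndufa10 (-0.09 by both), Ndufa3 (-0.15 by both), Sdhb (-0.29 and -0.30), Sdhc (-0.29 by both) and Uqcr10 (-0.01 by voom). In KO MZB vs KO FoB they were Atp5b (-0.10 by both), Cox6a1 (-0.22 and -0.21), Cox7a2l (-0.05 by both), Ndufs1 (-0.00 by both), Sdha (-0.03 by both), Sdhc (-0.30 and -0.31) and Uqcr11 (-0.05 and -0.07).

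Depth limits Cox7a1 most. Rescaled fits without a library or with the block were added after seeing the data; the cause of these shifts was not tested. For the named genes, alternatives other than leaving out a library kept direction and side of the threshold 544 times and lost the threshold in the same direction 98 times; leaving out a library kept both 881 times and lost the threshold 69 times.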
